A study of Petunia x hybrida with 9 samples.

Results

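The carboxyl methyltransferases of the petunia corolla were taken as all loci whose best tomato protein is described as a carboxyl methyltransferase, and 34 of 94534 measured loci met that rule. They came from 10 assembled genes and matched 7 tomato proteins. Of the 34 loci, 20 matched a protein that carries InterPro entry IPR005299, the domain of the SABATH family, and no locus outside the rule carried that entry. The remaining 14 loci were described as leucine (8 loci) or isoprenylcysteine (6 loci) carboxyl methyltransferases, which methylate proteins and belong to other families, so the name SABATH covered only the first 20. No locus was described as a benzoic or jasmonic acid enzyme. A description names the closest tomato protein, not a petunia gene or its substrate.

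The plants were Petunia hybrida cv. Mitchell, whose white corollas are strongly scented, and 9 RNA libraries were made from them. Wild type, line A4 and line A9 had 3 libraries each. The submitters give A4 and A9 as overexpressors of PhADT (arogenate dehydratase) carrying a directed mutation, and the mutation label R353A stands on every sample, wild-type samples too. At least 8 corollas went into a sample; they were picked at 20 h on day 2 post-anthesis from greenhouse plants lit between 6 AM and 9 PM. The transgene promoter is not given in the sources used here, nor is the number of plants per line, and separate plants for the replicates are not stated. The p-values thus measure the spread between these samples, and that spread may be technical.

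SABATH enzymes pass the methyl group of S-adenosylmethionine to the carboxyl group of small acids and so make volatile methyl esters. Methyl benzoate, made in petunia corollas from benzoic acid, is part of the scent released in the evening; methyl salicylate and methyl jasmonate are better known as defence signals. Benzoic acid is itself built from phenylalanine, the product of arogenate dehydratase. An enzyme that methylates benzoic acid thus acts downstream of the step named in the line labels.

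The low values moved in steps that gave between 30600000 and 43100000 fragments a library. XLOC_018765, the dehydratase locus that rose most in A9, stood at 108.2, 80.8 and 97.0 FPKM there and at no more than 0.0579 FPKM in any library of the other groups. In limma none of the 15 tested dehydratase loci rose in the A4-labelled libraries, also at an unadjusted p under 0.05, and 7 fell, so a direction drawn from those libraries rests on their label. Among all tested loci, 15.6% rose and 16.6% fell in the A4-labelled libraries, and 8.98% rose and 10.3% fell in A9. The marker counts that follow stand beside the same shares. No locus carried the petal marker names searched (DEFICIENS, GLOBOSA, PISTILLATA, APETALA3, TM6), so the corolla label could not be checked by them. Green tissue loci (138, of which 96 were tested) summed to between 1965 and 2487 FPKM in the wild type, 1171 and 1773 FPKM in the A4-labelled libraries and 918.4 and 1424 FPKM in A9. Of those tested, 42 fell in A4-labelled libraries (9 rose) and 47 fell in A9. Pollen or anther loci (60) summed to between 320 and 429 FPKM over all libraries. Loci of the pistil names searched (12) summed to between 70.5 and 82.8 FPKM. The highest of these, XLOC_024275 (30.5 ± 3.26 FPKM in the wild type), is described as a self-incompatibility locus-linked pollen protein, as are XLOC_081805 and XLOC_081807. Such loci count in both lists, so the second sum is not a level of pistil tissue. Of 36 tested pollen or anther loci, 6 rose and 12 fell in the A4-labelled libraries and 8 rose and 8 fell in A9. Of 7 tested loci of the pistil names, limma called none in the A4-labelled libraries. Of these, 1 had an unadjusted p under 0.05, lower, the pollen-named XLOC_024275. In A9, 2 rose, XLOC_083788 and XLOC_083789, both described as a self-incompatibility ribonuclease (limma adjusted p of 0.00649 and 0.00743). The tested loci of the green tissue, pollen or anther and pistil names came from 57, 20 and 5 assembled genes. The part of these markers in the results below was not tested. In RNA from whole corollas, fewer cells of a type and less RNA per cell cannot be told apart.

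The most abundant carboxyl methyltransferase was a single assembled gene, TR33704 c0_g3, whose 9 loci all matched the tomato salicylic acid carboxyl methyltransferase Solyc09g091550.2.1. These loci held 98.2% of the summed FPKM of all 34 members in wild type, 97.6% in the A4-labelled libraries and 98.0% in A9. They took between 0.283% and 0.337% of all fragments of a wild-type library. Their identity to the tomato protein lay between 76.8% and 83.3%, and none of their alignments went past residue 264. The other 2 loci that match the same protein reached residue 360 at lower identity. Those were XLOC_033515 in TR28890 c0_g1, at 67.9%, and XLOC_033516 in TR28890 c0_g2, at 66.2%.

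**Figure D1:**
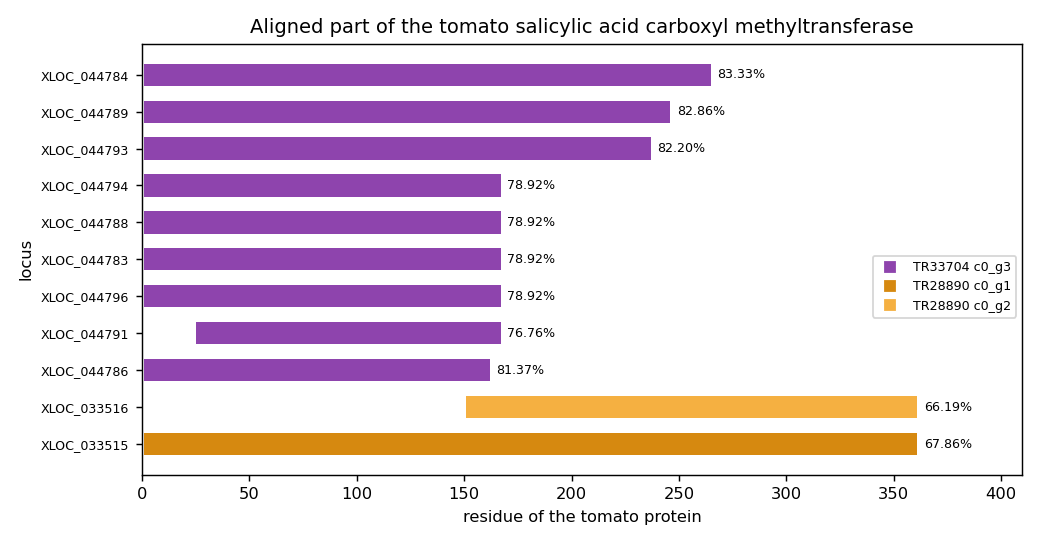
Aligned part of the tomato salicylic acid carboxyl methyltransferase for each of its 11 loci: bars run from the first to the last aligned residue (x axis, residue of the tomato protein), coloured by assembled gene, with identity in percent at the right. The 9 loci of TR33704 c0_g3 end at or before residue 264, whereas both TR28890 loci reach residue 360.

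XLOC_044784, which spans bases 25 to 899 of its contig, was the highest locus of the family. It stood at 1114, 1172 and 1385 FPKM in wild-type replicates 1, 2 and 3, at 1639, 1565 and 1543 FPKM in the A4-labelled libraries and at 1641, 1654 and 1116 FPKM in A9. All 3 libraries labelled A4 lay above all wild-type libraries, and 2 of the A9 libraries did so too, whereas A9 replicate 3 lay at the level of wild-type replicate 1. Among all measured loci it ranked between 49 and 64 by FPKM in the wild type, between 20 and 30 in the A4-labelled libraries and between 26 and 55 in A9.

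The group means of XLOC_044784 were 1224 ± 143 FPKM in the wild type, 1583 ± 50.1 FPKM in the A4-labelled libraries and 1470 ± 307 FPKM in A9 (SD, n = 3 each). Its difference from wild type on the log2(FPKM + 1) scale was 0.38 (SE 0.16) in the A4-labelled libraries, with a limma adjusted p = 0.0996, and 0.25 (SE 0.16) in A9, with adjusted p = 0.313. Neither passed the threshold of 0.05. Without A9 replicate 3 the adjusted p was 0.0227 for the A4-labelled libraries, at the same difference of 0.38, and 0.0397 for A9, at a difference of 0.43. A fit of the 2 groups (adjusted p = 0.041) and quantile normalization (0.0141, at a difference of 0.69) also called it in the A4-labelled libraries, but not in A9.

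XLOC_044789, the next locus, stood at 508.9, 543.0 and 637.3 FPKM in the wild type and at 764.4, 721.7 and 716.2 FPKM in the A4-labelled libraries. It stood at 744.4, 784.2 and 518.4 FPKM in A9, again with replicate 3 among the wild-type values. Its differences of 0.39 (SE 0.16, adjusted p = 0.093) and 0.26 (SE 0.16, adjusted p = 0.292) by limma did not pass either.

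The 9 loci of this gene moved together. The share of XLOC_044784 in their summed FPKM lay between 49.5% and 51.8% in all 9 libraries, and that of XLOC_044789 between 23.0% and 23.7%. The loci are alternative contigs of the same assembled gene and their reads may be shared, so they are not 9 separate observations. In every one of the 9 loci the 3 libraries labelled A4 lay above the 3 wild-type libraries. Over all tested loci, 21.6% had this order.

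**Figure D2:**
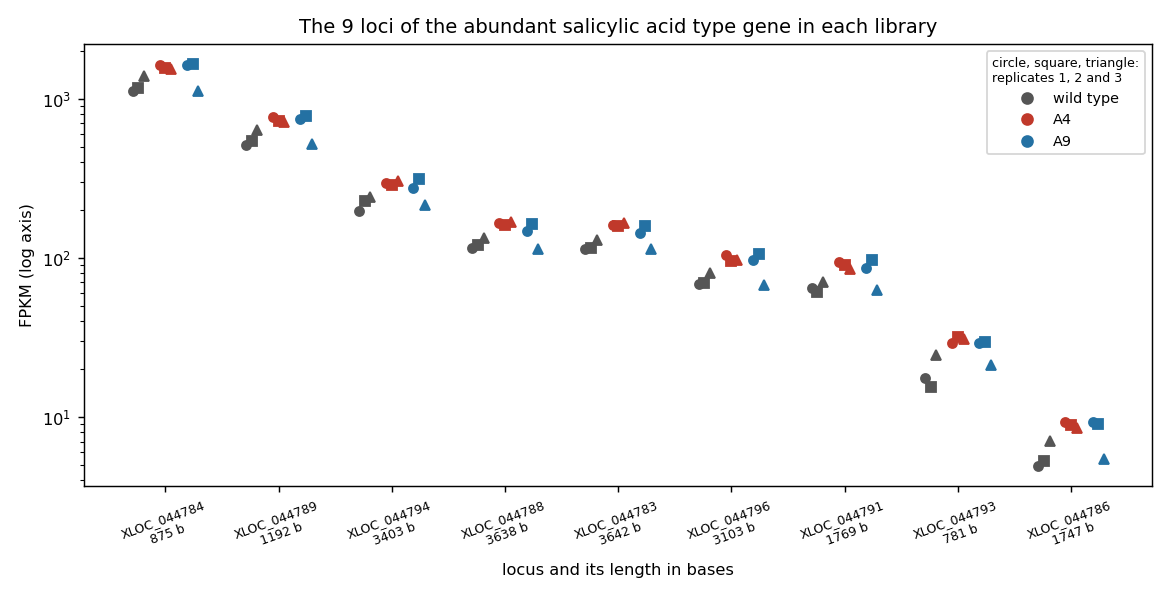
FPKM (log axis) of the 9 loci of TR33704 c0_g3 in each library, ordered by mean level, with the locus length in bases under each name; colours are the groups and marker shapes the replicates. At each locus A9 replicate 3 (blue triangle) sits below the other 2 A9 libraries, and the A4-labelled libraries sit above wild type.

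Of these 9 loci, 5 were called higher in the A4-labelled libraries, with log2 differences between 0.42 and 0.67; over all tested loci, 15.6% were called higher. Summed over all loci of the assembled gene, TR33704 c0_g3 was not called in limma (difference 0.39, SE 0.16, adjusted p = 0.0928 in the A4-labelled libraries, and 0.25, adjusted p = 0.306 in A9). In A9 limma called none, and 1 had an unadjusted p under 0.05. The lowest p was that of XLOC_044793, at 17.5, 15.5 and 24.5 FPKM in the wild type and 29.0, 31.9 and 30.8 FPKM in the A4-labelled libraries (difference 0.67, SE 0.18, limma adjusted p = 0.0197). In A9 it stood at 29.1, 29.5 and 21.1 FPKM (difference 0.46, SE 0.18, adjusted p = 0.105). XLOC_044783, at a mean of 119.5 ± 9.44 FPKM in the wild type and 161.9 ± 4.21 FPKM in the A4-labelled libraries, had a limma difference of 0.44 (SE 0.12, adjusted p = 0.0267). XLOC_044788 rose by 0.42 (adjusted p = 0.035), XLOC_044791 by 0.45 (0.0473) and XLOC_044786 by 0.56 (0.0472). The remaining 2 loci, XLOC_044794 and XLOC_044796, were at 222.4 ± 22.3 and 72.6 ± 6.47 FPKM in the wild type and 294.5 ± 8.45 and 98.8 ± 4.08 FPKM in the A4-labelled libraries (adjusted p of 0.0523 and 0.0615).

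None of these 5 calls was firm. Each was lost without wild-type replicate 1 (adjusted p between 0.0642 and 0.14), wild-type replicate 2 (0.0642 to 0.125), A4 replicate 2 (0.0566 to 0.101) or A4 replicate 3 (0.0571 to 0.0934). Without A4 replicate 1, 4 of them were lost, and XLOC_044793 was kept. Without wild-type replicate 3, XLOC_044788 and XLOC_044791 were lost (0.0519 and 0.0718), and XLOC_044791 was also lost without A9 replicate 1 (0.0605) and with no filter on low values (0.0511). Between the A4-labelled libraries and A9 limma called no locus of this gene, and none had an unadjusted p under 0.05; differences lay between 0.13 and 0.24, with adjusted p from 0.214 to 0.614.

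The same assembled gene also held 4 loci whose best tomato protein is a different one, described as Mic1-like, and 1 locus with no tomato match. The Mic1-like loci were much lower, at means between 2.47 and 7.86 FPKM, and 3 of them fell in the A4-labelled libraries. XLOC_044785 fell by 0.42 on the log2 scale (adjusted p = 0.00464), XLOC_044790 by 0.34 (0.013) and XLOC_044792 by 0.33 (0.0132). Contigs of this assembled gene thus carry matches to different proteins. Of the salicylic acid type loci, 4 were between 3103 and 3642 bases long, with an alignment over no more than 166 residues.

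XLOC_033515 and XLOC_033516, the other salicylic acid type loci, were close to 0 in wild type and present in every library of both lines. XLOC_033515 was listed at 0, 0.139 and 0 FPKM in the wild type, where the value above 0 stands for about 5 fragments. In the A4-labelled libraries it stood at 13.3, 7.75 and 10.9 FPKM, or between about 258 and 604 fragments. In A9 it stood at 1.73, 9.14 and 3.78 FPKM, with replicate 2 at the level of the A4-labelled libraries and replicate 1 far below them. Its limma difference from wild type was 3.45 (SE 0.40, adjusted p = 0.00033) in the A4-labelled libraries and 2.29 (SE 0.40, adjusted p = 0.0051) in A9.

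XLOC_033516 was likewise lowest in wild type, and within A9 it was again lowest in replicate 1 and highest in replicate 2. It was listed at 0, 0 and 0.0480 FPKM in the wild type, the last standing for about 1 fragment, at 4.30, 3.07 and 4.81 FPKM in the A4-labelled libraries and at 0.680, 3.52 and 1.78 FPKM in A9. Its differences were 2.30 (SE 0.30, adjusted p = 0.000649) and 1.45 (SE 0.30, adjusted p = 0.0116) by limma. Both loci passed the filter on low values only through the lines, where they had to differ, so their calls are no independent support. Among the pollen or anther markers, XLOC_041248 (Pollen Ole e 1 allergen and extensin) likewise went from 0.239 ± 0.101 FPKM in the wild type to 9.06 ± 1.74 FPKM in the A4-labelled libraries and 2.65 ± 1.82 FPKM in A9. It too passed the filter only through the lines. Of the 36 tested loci of that list, 6 rose and 12 fell in the A4-labelled libraries, and 8 rose and 8 fell in A9. The part of XLOC_041248 in the values of the 2 member loci was not tested. The size of such a difference also depends on the pseudocount of 1. With a pseudocount of 0.1 the differences of XLOC_033515 were 6.30 in the A4-labelled libraries and 4.91 in A9. The alignments of these loci overlap from residue 151 to 360.

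The comparison of both lines was not called for either locus (difference A4 minus A9 of 1.17, SE 0.40, adjusted p = 0.0782, and 0.86, SE 0.30, adjusted p = 0.0848 by limma). It rested on A9 replicate 2, without which the adjusted p fell to 0.00666 and 0.0113.

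The TR26682 c0_g1 gene, matching tomato carboxyl methyltransferase 4 (Solyc02g084950.2.1), rose in both lines with little spread between libraries. The acid that this enzyme methylates is not named in the description. XLOC_031840, aligned over residues 1 to 370 at 82.7% identity, stood at 3.69, 3.84 and 3.82 FPKM in the wild type. It stood at 9.26, 8.43 and 10.0 FPKM in the A4-labelled libraries and at 5.90, 5.33 and 7.09 FPKM in A9. The 3 groups did not overlap, with wild type lowest and the A4-labelled libraries highest.

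XLOC_031840 rose by 1.09 (SE 0.10, limma adjusted p = 9.39e-05) in the A4-labelled libraries and by 0.56 (SE 0.10, adjusted p = 0.00617) in A9. The difference between the lines, 0.53 (SE 0.10, adjusted p = 0.0099), also passed. All 3 calls held under each alternative run.

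The other 2 loci of this gene had the same order. XLOC_031839 was at 2.00 ± 0.0910 FPKM in the wild type, 5.07 ± 0.900 FPKM in the A4-labelled libraries and 3.29 ± 0.388 FPKM in A9. XLOC_031841 was at 2.47 ± 0.280, 5.67 ± 0.953 and 3.86 ± 0.675 FPKM in the same groups. In limma both rose in the A4-labelled libraries (differences of 1.01 and 0.94, adjusted p of 0.000276 and 0.00103) and in A9 (0.51 and 0.48, adjusted p of 0.0149 and 0.0376). The A9 call of XLOC_031839 was lost without wild-type replicate 1 (0.0533) or A9 replicate 3 (0.0548). That of XLOC_031841 was lost without any of the wild-type libraries (0.109, 0.104 and 0.0559), A9 replicate 2 or 3 (0.0742 and 0.117) or A4 replicate 1 (0.0523).

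TR43598 c0_g1, matching a tomato protein described only as carboxyl methyltransferase (Solyc04g055260.2.1), had 5 loci, all with means under 1 FPKM and therefore outside the fit. XLOC_065790, the highest of them, was at 0.244 ± 0.0274 FPKM in the wild type, 1.40 ± 0.675 FPKM in the A4-labelled libraries and 0.444 ± 0.138 FPKM in A9. XLOC_065787 had a listed value of 0 in all wild-type libraries, of 1.08, 2.28 and 1.01 FPKM in the A4-labelled libraries and at 0.611, 0.720 and 0.487 FPKM in A9. These values stand for few fragments: between 16 and about 26 for XLOC_065787 in a library labelled A4 and between 6 and 12 in A9.

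Summed over its 5 loci, TR43598 c0_g1 was at 0.595, 0.903 and 0.648 FPKM in the wild type, 4.22, 8.97 and 5.34 FPKM in the A4-labelled libraries and 1.48, 2.28 and 2.11 FPKM in A9. The groups did not overlap. The sum, at a mean under 1 FPKM in the wild type, passed the filter on low values only through the lines, so that a difference was built into its selection. In the limma fit of FPKM summed per assembled gene it rose by 2.01 (SE 0.23, adjusted p = 0.000239) in the A4-labelled libraries and by 0.78 (SE 0.23, adjusted p = 0.0377) in A9. The difference between the lines was 1.24 (SE 0.23, adjusted p = 0.00658). Without a filter on low values limma called all 5 loci higher in the A4-labelled libraries than in wild type and than in A9. It called XLOC_065787 higher in A9 than in wild type (adjusted p = 0.0224). Of all 94534 loci in that run, 14522, 8617 and 7389 were called higher in these comparisons, in that order. The 5 loci are contigs of the same assembled gene and count as 1 observation. XLOC_065787, XLOC_065790 and XLOC_065845 fall outside the naming rule and were chosen after their values were seen, as were XLOC_060714 and XLOC_005320 below.

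XLOC_065845 of TR43598 c2_g1 was the only locus that matched Solyc00g033460.2.1, described as S-adenosyl-L-methionine salicylic acid carboxyl methyltransferase 1. It aligned over residues 23 to 143 at 58.7% identity, the lowest of the family. It stood at 2.17, 4.81 and 3.35 FPKM in the wild type, at 3.02, 3.88 and 3.97 FPKM in the A4-labelled libraries and at 4.56, 6.38 and 5.96 FPKM in A9. Only wild-type replicate 2 overlapped A9, and all libraries labelled A4 lay below all A9 libraries. Its limma difference of 0.61 from wild type in A9 (SE 0.21) did not pass (adjusted p = 0.0746), but did with the replicate number as a block (adjusted p = 0.0122). The difference A4 minus A9, -0.52 (adjusted p = 0.123), likewise passed under the block (adjusted p = 0.024).

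**Figure D3:**
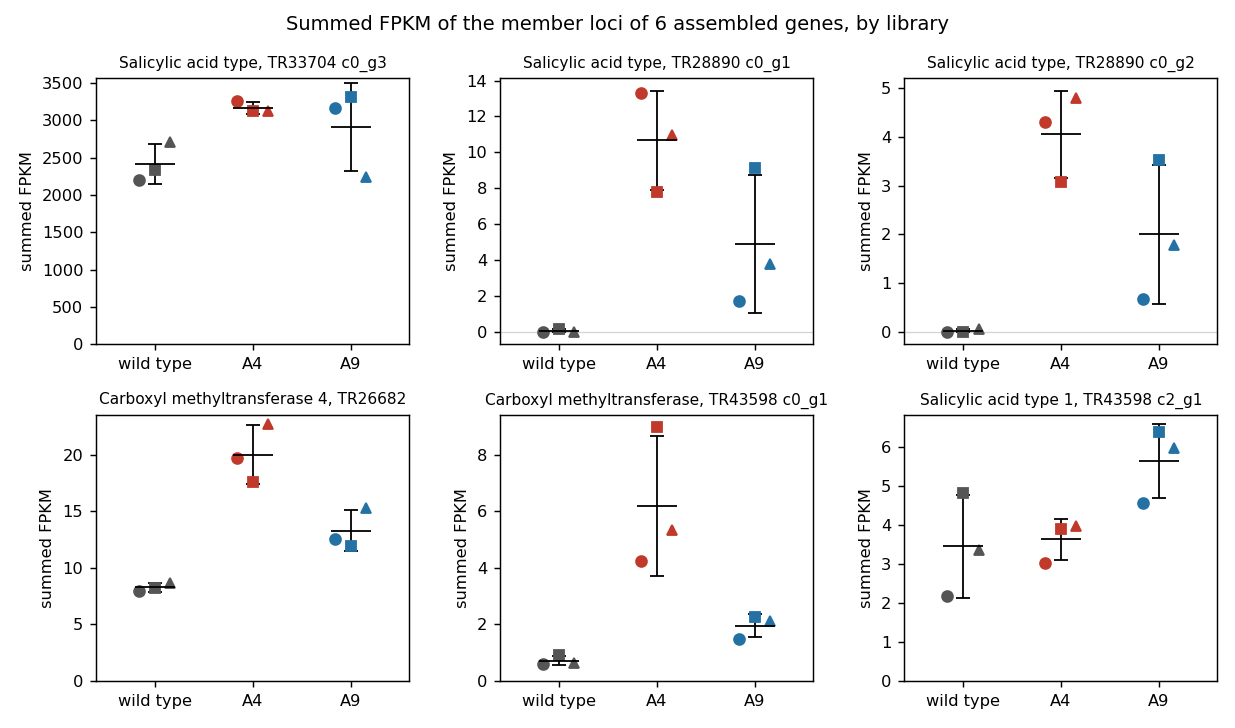
Summed FPKM of the member loci of the 6 assembled genes with the SABATH domain, by library; circles, squares and triangles are replicates 1, 2 and 3, and bars give the mean and SD of 3 libraries. Wild type lies lowest without overlap for TR26682, both TR28890 genes and TR43598 c0_g1, whereas A9 replicate 3 lies within the wild-type range for TR33704 c0_g3.

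Of the members without the SABATH domain, 2 of the 12 tested were called against wild type, both of the isoprenylcysteine type: 1 in the A4-labelled libraries, where 32.1% of all loci were called, and 2 in A9, where 19.2% were. Leucine carboxyl methyltransferase methylates the end of the catalytic subunit of protein phosphatase 2A. Its 8 loci, all of TR42019 c5_g1, matched Solyc01g090280.2.1 at identities of 83.9% to 91.6%, and 6 of them reached a mean of 1 FPKM. The highest, XLOC_060717, stood at 7.02, 7.42 and 7.53 FPKM in the wild type, 6.29, 7.74 and 9.30 FPKM in the A4-labelled libraries and 6.56, 6.42 and 6.44 FPKM in A9. Limma called none of the 6 against wild type, and none had an unadjusted p under 0.05, with differences between -0.06 and 0.15 in the A4-labelled libraries and between -0.17 and -0.02 in A9. Between the lines, XLOC_060714 (3.55 ± 0.382 FPKM in the A4-labelled libraries and 2.73 ± 0.290 FPKM in A9) passed in limma only with the replicate number as a block (difference 0.29, adjusted p = 0.0442, against 0.0543 without it). XLOC_060717 was called higher in the A4-labelled libraries than in A9 without A4 replicate 1 (difference 0.34, adjusted p = 0.0418).

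Isoprenylcysteine carboxyl methyltransferase methylates the prenylated end of small membrane-bound proteins. Of its 6 loci, 4 came from TR33134 c0_g1 and matched Solyc04g009010.1.1 over residues 1 or 2 to 197 at 89.3% or 89.8% identity. XLOC_042352 stood at 2.14, 2.09 and 2.35 FPKM in the wild type, 3.02, 2.73 and 2.62 FPKM in the A4-labelled libraries and 2.92, 2.88 and 3.12 FPKM in A9. It rose by 0.24 (SE 0.07, limma adjusted p = 0.0311) and by 0.31 (SE 0.07, adjusted p = 0.0175) in the lines. XLOC_042353 rose in A9, from 1.38 ± 0.268 to 2.09 ± 0.118 FPKM (difference 0.39, SE 0.09, adjusted p = 0.0183). In all 4 loci the A9 libraries lay above the wild-type libraries, an order that 17.5% of all tested loci had.

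These calls of single loci were small and depended on single libraries. Summed over the assembled gene, TR33134 c0_g1 was called higher in A9 by limma (difference 0.40, SE 0.08, adjusted p = 0.0111). In the A4-labelled libraries the sum was not called (difference 0.20, SE 0.08, adjusted p = 0.101). Leaving out wild-type replicate 1 or 2 or A9 replicate 3 ended the A9 call of XLOC_042352 (adjusted p of 0.0592, 0.0573 and 0.0626). Its call in the A4-labelled libraries ended without wild-type replicate 1 or 2 (0.0859 and 0.0897) or A4 replicate 1 or 2 (0.0949 and 0.0639), under quantile normalization (0.055) and in a fit of the 2 groups (0.0587). That of XLOC_042353 in A9 was lost without wild-type replicate 1 or 3 (0.0643 and 0.0653) or A9 replicate 1 or 3 (0.0502 and 0.062), and without wild-type replicate 2 the locus was called in the A4-labelled libraries as well (0.0326). XLOC_042355, the highest locus of this type, was at 2.62 ± 0.368, 2.58 ± 0.122 and 3.40 ± 0.324 FPKM in the wild type, the A4-labelled libraries and A9. It was not called in any comparison, but without wild-type replicate 2 it was called higher in A9 than in wild type (0.0423) and lower in the A4-labelled libraries than in A9 (0.0491). Median-ratio scaling also gave the first of these calls (0.046) and quantile normalization the second (0.0381). The 2 loci of TR12468, on another tomato protein of that description, Solyc07g007700.1.1, which carries no InterPro entry in the table, were at means of 1.65 and 1.27 FPKM. Neither was called, and the higher, XLOC_005320, differed from wild type by -0.01 in the A4-labelled libraries and by -0.08 in A9.

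Over the whole family, 27 of the 34 loci reached a mean of 1 FPKM and entered the fit. Of these, 11 were called higher in the A4-labelled libraries and none lower. Of all 53284 tested loci, 32.1% were called in that comparison, 15.6% higher and 16.6% lower. All 3 A4-labelled libraries lay above all wild-type libraries in 16 members and below them in none, where 21.6% and 26.3% of all loci had these orders. Of the 16, 9 were the loci of TR33704 c0_g3 and 3 those of TR26682 c0_g1. Contigs of the same assembled gene are not separate observations, so these counts cannot be set against the shares as if they were. In A9, 7 were called higher and none lower, where 19.2% of all loci were called, 8.98% higher and 10.3% lower. Of these 7, 3 were of TR26682 c0_g1 and 2 of TR33134 c0_g1. The A9 libraries lay above wild type in 9 members and below it in 2, where 17.5% and 20.8% of all loci had these orders. Of the 9, 4 were of TR33134 c0_g1 and 3 of TR26682 c0_g1, and the 2 below were both of TR42019 c5_g1. Between the lines, 3 members were called, all higher in the A4-labelled libraries and all of TR26682 c0_g1, where 18.0% of all loci were called, 9.91% higher and 8.13% lower. The A4-labelled libraries lay above A9 in 5 members and below it in 3, against 17.7% and 18.6% of all loci. The count of 11 calls was 5 without wild-type replicate 1 or A4 replicate 2 and 6 without wild-type replicate 2 or A4 replicate 1 or 3. That of 7 calls was 3 without wild-type replicate 1, and that of 3 calls between the lines was 1 without A4 replicate 3 or A9 replicate 1. At an unadjusted p under 0.05 in limma, none of the members was lower in either line than in wild type, and 2 were lower in the A4-labelled libraries than in A9. The counts in the lines include XLOC_033515 and XLOC_033516, which passed the filter only through the lines. The 11 calls came from 5 of 9 tested assembled genes. Both comparisons use the same wild-type libraries.

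**Figure D4:**
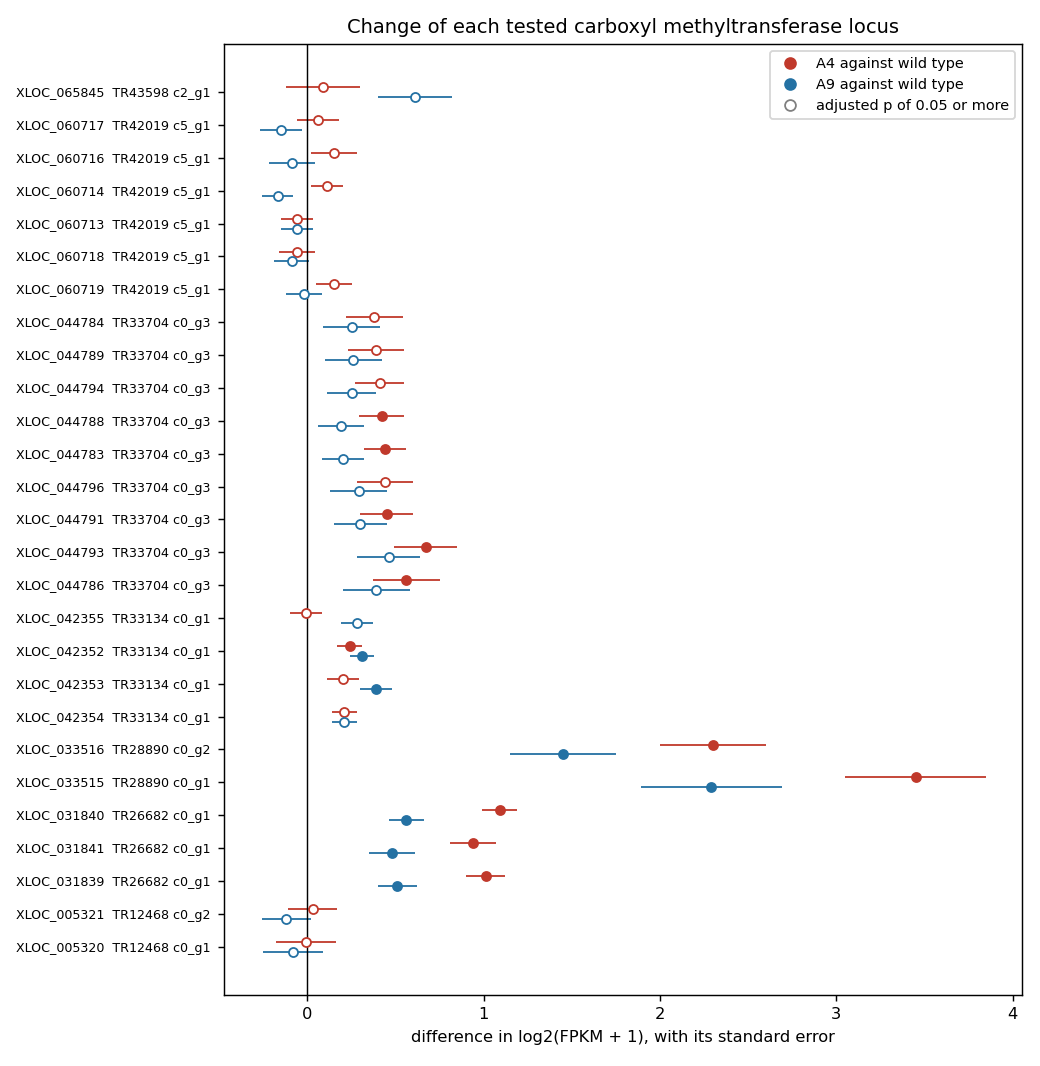
Difference in log2(FPKM + 1) from wild type, with its standard error, for each of the 27 tested loci in the A4-labelled libraries (red) and in A9 (blue), grouped by assembled gene; filled points passed a limma adjusted p of 0.05. The TR28890 loci lie furthest to the right, at 3.45 and 2.30 in the A4-labelled libraries, and the leucine type loci of TR42019 lie around 0.

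The summed FPKM of the 34 loci, a description dominated by TR33704 c0_g3, was 2245, 2376 and 2753 in wild type. It was 3337, 3192 and 3203 in the A4-labelled libraries and 3222, 3379 and 2296 in A9. Without TR33704 c0_g3 the order among the SABATH genes in wild type was TR26682 c0_g1 (8.26 ± 0.384 FPKM), TR43598 c2_g1 (3.45 ± 1.32 FPKM), TR43598 c0_g1 (0.715 ± 0.165 FPKM) and the TR28890 genes (0.0464 ± 0.0804 and 0.0160 ± 0.0277 FPKM). The last 2 could not be told apart within their SD. In the A4-labelled libraries, the mean of TR28890 c0_g1 (10.7 ± 2.78 FPKM) lay above those of TR43598 c0_g1 (6.18 ± 2.48 FPKM) and TR43598 c2_g1 (3.62 ± 0.526 FPKM), although its libraries overlapped those of TR43598 c0_g1.

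The pattern of XLOC_044784 over the 9 libraries was most like that of XLOC_028252, described as sorting nexin 1 (Pearson r = 0.925 of log2(FPKM + 1)), among 16838 loci of other assembled genes. XLOC_092502, a U-box protein (0.92), XLOC_025143, elongation factor 1 alpha (0.903), XLOC_031786, a regulatory subunit of protein phosphatase 2A (0.902), and XLOC_071398, a protein kinase (0.901), followed. These values are the highest of many over 9 libraries in 3 groups and are given as a description.

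Of 82 tested loci for S-adenosylmethionine synthesis and recycling, 19 fell and 7 rose in the A4-labelled libraries (median log2 difference -0.11, against -0.04 over all tested loci), and 14 fell and 6 rose in A9 (-0.11 against -0.01). Over all tested loci, too, more fell than rose, 16.6% against 15.6% and 10.3% against 8.98%. The 82 loci came from 35 assembled genes, and contigs of the same gene are not separate observations. S-adenosylmethionine synthase XLOC_045982, which makes the donor, fell from 7977 ± 615 to 6575 ± 434 FPKM in the A4-labelled libraries (limma difference -0.28, adjusted p = 0.0432) and was at 7066 ± 311 FPKM in A9 (adjusted p = 0.217). XLOC_024670, of the methionine-forming homocysteine methyltransferase type, fell from 2562 ± 135 FPKM to 1816 ± 109 and 1937 ± 182 FPKM in the lines (limma adjusted p of 0.00486 and 0.0197). A second S-adenosylmethionine synthase locus, XLOC_014000, rose in A9, from 7.15 ± 1.81 to 23.2 ± 2.44 FPKM (limma adjusted p = 0.000169).

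The list of benzoate and salicylate supply held only phenylalanine ammonia-lyase, which opens the route from phenylalanine towards benzoic acid. Its 17 loci came from 8 assembled genes. Of these loci, 11 fell and none rose in the A4-labelled libraries (median -0.53). Over all tested loci the median was -0.04, and 16.6% fell. In A9 limma called none (median -0.11), and none had an unadjusted p under 0.05 either, where the median over all tested loci was -0.01 and 10.3% fell. XLOC_082249 fell from 924 ± 98.5 to 638 ± 4.31 FPKM in the A4-labelled libraries (limma adjusted p = 0.00449). XLOC_082237, the highest, was at 3470 ± 674 FPKM in the wild type, 2518 ± 297 FPKM in the A4-labelled libraries (adjusted p = 0.0926) and 3839 ± 720 FPKM in A9 (adjusted p = 0.623).

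Of 56 other O-methyltransferase loci, 14 fell and 9 rose in the A4-labelled libraries (median -0.17), and 8 fell and 7 rose in A9 (median -0.11). In the first comparison 16.6% of all tested loci fell and 15.6% rose, and in the second 10.3% fell and 8.98% rose. The 56 loci came from 26 assembled genes. Caffeoyl-CoA O-methyltransferase XLOC_053395, of the lignin pathway, fell from 6576 ± 642 to 4507 ± 507 FPKM in the A4-labelled libraries (limma adjusted p = 0.0104). XLOC_058473, with the same description, rose there from 0.154 ± 0.0976 to 21.1 ± 8.55 FPKM (limma adjusted p = 5.83e-05), having passed the filter through those libraries.

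In the jasmonate synthesis list, which the name pattern also opened to a lipoxygenase homology domain protein, 10 of 25 tested loci rose and 3 fell in the A4-labelled libraries (median 0.25). In A9, 14 rose and 4 fell (median 0.50). The 25 loci came from 13 assembled genes. Among all tested loci, 15.6% rose and 16.6% fell in the A4-labelled libraries, and 8.98% rose and 10.3% fell in A9. Allene oxide synthase XLOC_060231, an early enzyme of jasmonate synthesis, was at 0.411 ± 0.120 FPKM in the wild type. It rose by 4.14 on the log2 scale in the A4-labelled libraries (limma adjusted p = 3.87e-08) and to 1.86 ± 0.0572 FPKM in A9 (a difference of 1.02, adjusted p = 0.000282). With a wild-type mean under 1 FPKM, it passed the filter only through the lines. The loci of the list that fell include the abundant lipoxygenase homology domain proteins XLOC_021840 and XLOC_021838.

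Protein phosphatase methylesterase 1 removes the methyl group that leucine carboxyl methyltransferase adds. The methylesterase list held 5 tested loci, all of this enzyme and of 1 assembled gene. Of these, 1 fell in the A4-labelled libraries, XLOC_079765, from 1.54 ± 0.0656 to 1.12 ± 0.0436 FPKM (limma adjusted p = 0.0259), and none was called in A9. The share of all tested loci that fell in the A4-labelled libraries was 16.6%. Methyl jasmonate esterase, which cleaves the ester back to the acid, was looked up after the list was seen to miss it. Its locus XLOC_090944 fell from 76.0 ± 7.32 to 15.9 ± 3.25 FPKM in the A4-labelled libraries (limma difference -2.20, SE 0.20, adjusted p = 6.98e-05) and was at 67.1 ± 18.1 FPKM in A9 (adjusted p = 0.513). Of 29 tested salicylate response loci, from 11 assembled genes, 2 rose and 3 fell in the A4-labelled libraries (median -0.14). In A9, 1 rose and 3 fell (median -0.26). Among all tested loci, 15.6% rose and 16.6% fell in the A4-labelled libraries, and 8.98% rose and 10.3% fell in A9. PR-1 XLOC_042151, a classical salicylate marker, rose in both lines, from 0.400 ± 0.280 FPKM to 29.8 ± 8.94 FPKM in the A4-labelled libraries and 5.81 ± 3.23 FPKM in A9 (limma adjusted p of 2.34e-05 and 0.00214). It was under 1 FPKM in the wild type and passed the filter only through the lines.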

How the data were processed

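The values deposited by the authors are FPKM per locus of an assembly, in 9 columns. The deposited tomato matches hold, per the file headers, an identity in percent, a bit score and an e-value of at most 0.001 for each matched locus. FastQC 0.11.2 and Bowtie2 2.2.6 are named in the submitters' processing notes; neither the assembler nor the program or scaling behind the FPKM is given in those notes. No genome and no sequences were used.

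Members and lists were matched by name to the tomato description before its first InterPro entry, and were chosen with earlier results of these data known. Named members had a mean of at least 5 FPKM, were called in a comparison or were the highest of their type. Loci whose mean reached 1 FPKM were tested on log2(FPKM + 1), in a single limma 3.58.1 fit (R 4.3.3) of 3 groups with a trended prior. Differences understate the change of low loci, and p-values were adjusted by Benjamini-Hochberg over all 53284 loci. The fit was tested on simulated data.

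Depth was recovered from low values of loci of 700 to 2000 bases: up to 4 fragments, 100% of the values used lay within 0.1 of a whole number after 275 to 290 bases were subtracted from the length. Fragment numbers cover counting error only. Python 3.11.15 drew the figures.

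Groups and replicate numbers came from the titles. Each library's deviation from its group mean was correlated, over loci, with that of the library of the same number in another group. For A9 and wild type r was 0.248, 0.344 and 0.104, and for A9 and A4 it was 0.24, 0.261 and 0.249; these are above 0.1 throughout, which counts as pairing. The tests reported have no block; the fit with the block is an alternative. For A4 and wild type, r of 0.229, 0.192 and -0.125 did not reach that. Some libraries of unlike number also passed 0.1. For A9 replicate 1 and wild-type replicate 3 r was 0.117. For A4 replicate 1 and wild-type replicate 3 it was 0.188, and for A4 replicate 3 and wild-type replicate 2 it was 0.231. The pairing comes from this check alone and is uncertain. Alternatives covered the pseudocount, the filter, scaling, the groups fitted, the block, summing of loci and leaving out each library.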

Additional observations from a re-analysis of the deposited data

Results flagged for a closer look

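The change from wild type differed between the lines for the 3 loci of TR26682 c0_g1, by the test of the A4-labelled libraries against A9. The log2 differences were 0.50 for XLOC_031839, 0.53 for XLOC_031840 and 0.46 for XLOC_031841. The 3 loci are contigs of the same assembled gene and count as 1 observation. The call of XLOC_031840 held under each alternative run. That of XLOC_031839 was lost without A4 replicate 3 or A9 replicate 1 or 2 (limma adjusted p of 0.0503, 0.0507 and 0.0528) or in a fit of the 2 groups (0.0553). That of XLOC_031841 was lost without each library left out except A4 replicate 2 and A9 replicate 3, with adjusted p up to 0.142, and also with a pseudocount of 0.1 (0.0514), no filter on low values (0.0508) or a fit of the 2 groups (0.0899).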

How the results depend on the processing

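The number of members called in the A4-labelled libraries against wild type was 11; it was 4 with FPKM summed per assembled gene and 2 summed per tomato protein, which test fewer units, and between 5 and 15 without 1 library. In A9 against wild type it was 7; it was 2 at a mean of at least 5 FPKM, 3 per tomato protein and between 3 and 8 without 1 library. Between the lines it was 3; it was 7 with no filter, 1 at a mean of at least 5 FPKM, 1 in a fit of the 2 groups and between 1 and 4 without 1 library. With the replicate number as a block the counts were 9 for A4 with wild type, 8 for A9 with wild type and 5 between the lines, the last with 1 lower. For wild type with A4 the replicate numbers did not count as pairing, although A9 counted as paired with both, so this is uncertain. In that comparison the block lost XLOC_044786 and XLOC_044791 (limma adjusted p of 0.0688 and 0.0539). Restricted to the SABATH domain, an alternative added after the data were seen, the counts were 10, 5 and 3. The summed FPKM of the members moved by less than the SD in each group under median-ratio scaling. It also did so without 1 library, but a mean of 3 cannot move by its SD when 1 is left out. The minimum length lay below the shortest member and left out no locus. Neither leaving out a library nor the minimum length could therefore test the sum.

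Over the named loci, 10 single values turned sign, none of them called. For XLOC_042355 in the A4-labelled libraries the difference was 0.02 under median-ratio scaling, 0.06 without wild-type replicate 2 and 0.0 without A4 replicate 1 or 2 (-0.09 to 0.06 without 1 library). For XLOC_060717 it was -0.06 without A4 replicate 3 (up to 0.19 without another library). Between the lines, without A9 replicate 3, it was -0.06 for XLOC_044784 and XLOC_044789, -0.04 for XLOC_044786 and XLOC_044796 and -0.03 for XLOC_044791; without another library these reached 0.22, 0.24, 0.29, 0.28 and 0.29 in that order. Of the other alternatives, 740 kept side and direction, 65 lost a call and 31 gained one; quantile normalization called XLOC_044784 and XLOC_044789 in the A4-labelled libraries (adjusted p of 0.0141 and 0.0112, differences of 0.69 and 0.72). Loci under 1 FPKM stand for few fragments, so changes there are the least precise.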
